A study of Mus musculus with 19 samples.

Results

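The genes described here are the mouse Hox genes, taken as every row of the deposited counts and FPKM table whose symbol is Hoxa, Hoxb, Hoxc or Hoxd followed by a number. There were 34 such genes among 36682 in that table. The larger count table listed 39, and the 5 others, Hoxb1, Hoxb13, Hoxc12, Hoxc13 and Hoxd12, had 0 counts in each of the 19 libraries. RNA was sequenced from dorsal root ganglia L3 to L5, the clusters of sensory neuron cell bodies that serve the knee and hindlimb, taken from the operated side in the surgery groups and pooled for each mouse. All mice were males homozygous for the MaFIA transgene (macrophage Fas-induced apoptosis), which lets the dimerizing drug AP20187 trigger death of macrophages and related myeloid cells, so the controls carried the transgene as well. The 4 groups were DMM with AP20187 (n = 5, mice 58 to 62), DMM with vehicle (n = 5, mice 32, 33, 34, 63 and 64), age-matched naive with AP20187 (n = 4, mice 1, 3, 4 and 5) and naive with vehicle (n = 5, mice 1 to 5). DMM is surgical destabilization of the medial meniscus, a model of knee osteoarthritis, and those mice were treated 8 weeks after surgery. Drug or vehicle was injected into the peritoneum daily for 5 days. Values below are listed in the mouse order given here.

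Hox genes encode homeodomain transcription factors that lie in 4 clusters, on chromosomes 6 (Hoxa), 11 (Hoxb), 15 (Hoxc) and 2 (Hoxd). The order of the genes along a cluster follows the order of their domains along the body axis, and genes at the same place in different clusters form a paralogue group. Low-numbered groups are known for patterning the hindbrain and neck, middle groups the brachial and thoracic levels, groups 9 and 10 the thoracic to lumbar levels, and groups 11 to 13 the sacral and tail levels and the ends of the limbs. Adult neurons, glia and connective tissue keep much of this code, so the set of Hox transcripts in a tissue marks its segment of origin. TALE homeodomain proteins (Pbx, Meis and Pknox) bind DNA together with Hox proteins, Polycomb proteins keep Hox clusters silent, and MLL and KDM6 proteins counter that silencing.

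Promoter windows are shown for the genes whose levels differed between groups, since these are the members on which the comparisons turn. RefSeq windows (GRCm38.p6), from 250 bases before to 50 bases after the start of transcription, were listed for 20 of the 34 members. Hoxa4, Hoxb5 and Hoxc10 had none. Each is written 5′ to 3′ on the strand of the gene, with matches on either strand to the motifs named after them in capitals.
Hoxa7, chr6:52218524-52218823, minus strand: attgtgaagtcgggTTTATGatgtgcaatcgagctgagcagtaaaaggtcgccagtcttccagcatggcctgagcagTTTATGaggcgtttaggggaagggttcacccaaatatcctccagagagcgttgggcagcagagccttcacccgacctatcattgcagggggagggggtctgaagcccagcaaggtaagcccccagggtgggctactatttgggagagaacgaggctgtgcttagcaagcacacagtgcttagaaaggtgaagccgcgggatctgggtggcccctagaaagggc
Hoxb8, chr11:96281655-96281954, plus strand: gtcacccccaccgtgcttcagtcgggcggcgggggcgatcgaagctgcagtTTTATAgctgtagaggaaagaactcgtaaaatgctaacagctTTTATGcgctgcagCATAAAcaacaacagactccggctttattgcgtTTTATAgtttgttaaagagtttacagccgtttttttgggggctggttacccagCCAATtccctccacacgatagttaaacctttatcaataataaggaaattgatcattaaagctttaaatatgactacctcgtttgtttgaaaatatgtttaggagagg
Hoxd1, chr2:74762730-74763029, plus strand: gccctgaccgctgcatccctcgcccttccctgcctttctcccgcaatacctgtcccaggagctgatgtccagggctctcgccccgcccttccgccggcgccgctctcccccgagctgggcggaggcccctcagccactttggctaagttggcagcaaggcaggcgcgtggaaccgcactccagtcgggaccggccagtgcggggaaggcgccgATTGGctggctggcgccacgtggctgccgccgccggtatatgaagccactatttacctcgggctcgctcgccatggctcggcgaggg
Hoxd9, chr2:74697513-74697812, plus strand: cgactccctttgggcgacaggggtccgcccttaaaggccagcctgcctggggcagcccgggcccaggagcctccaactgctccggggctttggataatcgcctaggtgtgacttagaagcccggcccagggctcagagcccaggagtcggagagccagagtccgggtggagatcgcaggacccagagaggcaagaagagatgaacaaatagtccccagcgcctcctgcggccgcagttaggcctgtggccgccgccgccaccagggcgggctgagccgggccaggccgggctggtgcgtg
Hoxd10, chr2:74691641-74691940, plus strand: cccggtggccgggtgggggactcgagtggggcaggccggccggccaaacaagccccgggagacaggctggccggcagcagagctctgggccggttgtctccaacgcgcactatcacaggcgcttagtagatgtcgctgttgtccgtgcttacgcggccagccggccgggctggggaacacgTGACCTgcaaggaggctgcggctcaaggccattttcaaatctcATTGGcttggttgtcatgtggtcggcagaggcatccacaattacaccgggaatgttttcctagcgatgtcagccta

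The Hoxa7 window held 2 matches to the Cdx motif TTTATG. The Hoxb8 window held 2 Cdx matches, 2 matches to the TATA box TATAAA and 1 to the CCAAT box. The Cdx motif and the TATA box on the opposite strand have the same letters but for 1 at the end. A CCAAT match stood in the Hoxd1 window and another in the Hoxd10 window, and Hoxd10 also held 1 match to the retinoic acid receptor motif AGGTCA. The Hoxd9 window held none of the 6 motifs searched, which also included the Meis motif TGACAG and the Pbx-Hox motif TGATTNAT. Of the 24 windows listed for any Hox symbol, 20.8% held the Cdx motif, 62.5% the CCAAT box, 16.7% the TATA box and 29.2% the retinoic acid receptor motif. Over all 32851 RefSeq windows of the same length the shares were 11.9%, 37.4%, 13.6% and 16.3%. The Meis motif was in 8.33% of Hox windows and 19.2% of all windows, and the Pbx-Hox motif in 8.33% and 3.22%. Hox windows held a median of 14.5 CpG dinucleotides (4 to 45), against 7 over all windows. A match is a string of letters in this window and no evidence of binding.

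Libraries held 60984830 to 74691396 counts, of which the Hox genes took 0.0184% to 0.0300%, or 12017 to 20519 counts a library. Markers of sensory neurons were present in every library: the 9 genes of that list summed to 932 to 10496 CPM (counts scaled to library size with TMM factors, the trimmed mean of M-values). Transcripts of the 10 forebrain to hindbrain patterning genes, among them Emx1, Emx2, Otx1, Otx2, Six3, En1, En2 and Gbx2, summed to only 0.739 to 2.28 CPM. On the first principal component of all tested genes, which held 36.9% of the variance, libraries with AP20187 lay from -158 to 7.43 and naive vehicle libraries from 42.5 to 112. DMM vehicle mice 32 to 34 lay from 72.0 to 117, mouse 63 at 15.1 and mouse 64 at -55.5, among the AP20187 libraries. No label gives a sequencing batch, and the comparisons below were also run with each of these subsets of DMM vehicle. Nothing in the labels says more of how the mice of a group were housed or processed, so p-values measure the spread between these mice.

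In these ganglia paralogue groups 3 to 10 were expressed together with 1 rostral gene, Hoxd1, and levels dropped after group 10. A gene is called expressed here when its mean was at least 1 FPKM (fragments scaled to transcript length and library size, so that genes of different length can be compared) in each of the 4 groups. By that rule 19 of 34 members were expressed. They were Hoxd1 in group 1, Hoxb3 in group 3, Hoxb4 and Hoxc4 in group 4, Hoxa5 and Hoxb5 in group 5, Hoxb6 and Hoxc6 in group 6, Hoxa7 and Hoxb7 in group 7, Hoxb8, Hoxc8 and Hoxd8 in group 8, Hoxa9, Hoxb9, Hoxc9 and Hoxd9 in group 9, and Hoxa10 and Hoxc10 in group 10. Group 9 thus had its gene of every cluster above the threshold. Just inside 1 FPKM were Hoxb4, whose lowest group mean was 1.07 FPKM, and Hoxb8 with 1.35. At 2 FPKM, 12 members remained, Hoxd1 and genes of groups 6 to 10, and none of groups 3 to 5. Just outside 1 FPKM was Hoxb2, at 1.32 to 1.65 FPKM in 3 groups and 0.875 in naive with AP20187.

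**Figure D1:**
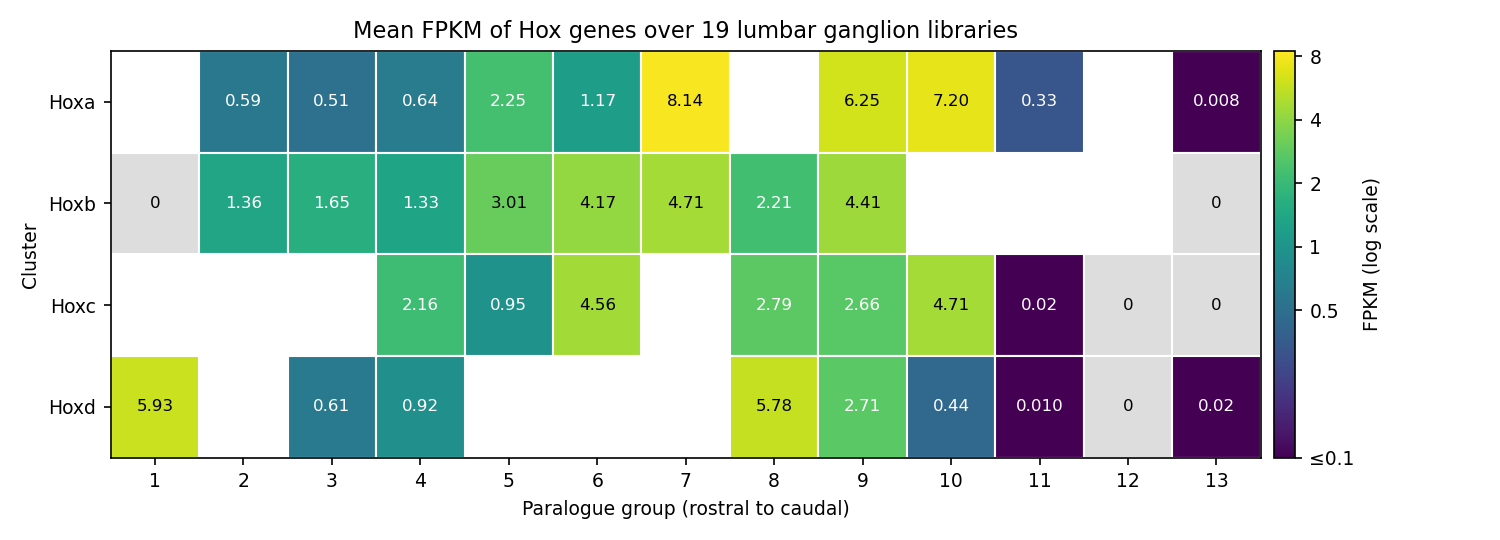
Mean FPKM over the 19 libraries for the Hox genes, with cluster on the vertical axis, paralogue group on the horizontal axis and colour on a log scale; grey cells are genes with 0 counts and blank cells have no mouse gene or are not shown. The brightest cells are Hoxa7 (8.14), Hoxa10 (7.20) and Hoxa9 (6.25), and from group 11 on every level is 0.33 FPKM or less.

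Levels fell gradually from the highest to the lowest expressed member, with no step between neighbours. Hoxa7, a gene of the brachial to thoracic code, had the highest mean at 8.14 ± 2.06 FPKM (SD over 19 libraries), followed by Hoxa10 at 7.20 ± 1.5 and Hoxa9 at 6.25 ± 1.76. Hoxd1, which is known for its part in the wiring of pain-sensing neurons, came next at 5.93 ± 3.26, with the widest spread (1.14 to 13.2 FPKM). It was followed by Hoxd8 (5.78 ± 1.57), Hoxb7 (4.71 ± 1.02), Hoxc10 (4.71 ± 1.39), Hoxc6 (4.56 ± 1.16), Hoxb9 (4.41 ± 1.0) and Hoxb6 (4.17 ± 1.38). The lower part of the order was Hoxb5 (3.01 ± 1.21), Hoxc8 (2.79 ± 0.860), Hoxd9 (2.71 ± 0.923), Hoxc9 (2.66 ± 0.761), Hoxa5 (2.25 ± 0.694), Hoxb8 (2.21 ± 0.808), Hoxc4 (2.16 ± 0.534), Hoxb3 (1.65 ± 0.339) and Hoxb4 (1.33 ± 0.549). No 2 neighbours in this order differed by more than the larger of their SDs: the gaps were 0.00263 to 0.943 of it.

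Group 10 is known for giving the lumbar vertebrae their rib-free form and for specifying lumbar motor neurons. Hoxa10 was at 7.44, 6.53, 9.33, 11.4 and 8.23 FPKM in DMM with vehicle, 6.83, 5.94, 6.71, 6.97 and 5.95 in DMM with AP20187, 8.31, 9.13, 7.35, 5.97 and 6.20 in naive with vehicle and 5.31, 6.02, 6.91 and 6.40 in naive with AP20187. Its highest library was in DMM with vehicle, and the other 3 groups overlapped it. Hoxc10 and Hoxd10, the other members of the group, differed between groups and are described with the comparisons. Group 9 was represented by genes of all 4 clusters. Hoxa9, also known from blood progenitors and leukaemia, was at 8.02, 7.51, 7.84, 8.60 and 4.63 FPKM in DMM with vehicle, 3.37, 4.89, 4.19, 7.12 and 5.34 in DMM with AP20187, 8.34, 7.81, 5.65, 6.57 and 8.53 in naive with vehicle and 4.60, 3.52, 5.18 and 7.04 in naive with AP20187. Hoxb9 was at 3.59, 3.44, 4.89, 3.57 and 5.93 FPKM in DMM with vehicle, 3.13, 3.77, 3.53, 3.76 and 4.10 in DMM with AP20187, 4.08, 5.97, 4.14, 3.89 and 5.37 in naive with vehicle and 3.69, 5.75, 4.83 and 6.28 in naive with AP20187. Hoxc9, which restricts limb-level motor neuron fates at thoracic levels, was at 2.70, 1.68, 2.11, 3.48 and 5.02 FPKM in DMM with vehicle, 2.73, 2.38, 2.24, 2.28 and 1.54 in DMM with AP20187, 2.66, 2.58, 2.77, 3.26 and 1.95 in naive with vehicle and 2.79, 2.40, 3.15 and 2.87 in naive with AP20187. In each of these 3 genes the FPKM ranges of the 4 groups overlapped, but in CPM every DMM AP20187 library of Hoxc9 lay below every naive AP20187 library (log2 fold change -0.51, edgeR adjusted p 0.298).

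Groups 6 to 8 are the brachial to thoracic part of the code and include Hoxa7, the most abundant member. Hoxd8 was at 7.18, 6.84, 6.74, 5.76 and 4.44 FPKM in DMM with vehicle, 3.19, 3.42, 3.91, 6.39 and 4.18 in DMM with AP20187, 6.88, 6.55, 5.13, 6.80 and 8.83 in naive with vehicle and 5.47, 3.89, 6.75 and 7.45 in naive with AP20187. Hoxc8, a gene of the forelimb level, was at 2.10, 1.81, 2.02, 3.15 and 4.23 FPKM in DMM with vehicle, 3.74, 3.64, 3.85, 3.10 and 1.98 in DMM with AP20187, 2.11, 2.35, 2.66, 4.29 and 2.08 in naive with vehicle and 2.79, 3.35, 1.70 and 1.97 in naive with AP20187. Hoxb7 was at 5.59, 3.52, 4.04, 6.15 and 6.61 FPKM in DMM with vehicle, 6.66, 3.65, 4.96, 4.69 and 3.83 in DMM with AP20187, 3.96, 4.04, 4.84, 3.98 and 3.59 in naive with vehicle and 4.08, 5.71, 4.28 and 5.33 in naive with AP20187. Both groups of naive mice were tighter for Hoxb7 than the DMM groups, and all 4 ranges overlapped in FPKM. Hoxc6 was at 3.90, 3.75, 4.81, 4.10 and 7.93 FPKM in DMM with vehicle, 5.40, 4.55, 5.90, 5.84 and 3.80 in DMM with AP20187, 2.91, 3.84, 4.40, 5.62 and 3.22 in naive with vehicle and 4.28, 4.11, 4.20 and 4.13 in naive with AP20187. Hoxb6 was at 3.33, 3.37, 4.81, 5.52 and 8.33 FPKM in DMM with vehicle, 5.26, 3.5, 4.60, 4.31 and 3.80 in DMM with AP20187, 3.58, 3.61, 4.82, 5.37 and 3.32 in naive with vehicle and 3.83, 2.37, 2.09 and 3.40 in naive with AP20187. The single highest value of both Hoxc6 and Hoxb6 belonged to DMM vehicle 64.

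Groups 3 to 5, whose domains begin in the hindbrain and neck, lay in the lower part of the order. Hoxa5, which is needed for the phrenic motor neurons of the neck, was at 2.25, 1.69, 2.62, 3.20 and 3.49 FPKM in DMM with vehicle, 2.12, 1.57, 1.49, 2.03 and 1.57 in DMM with AP20187, 1.72, 2.33, 2.34, 3.95 and 2.78 in naive with vehicle and 1.49, 1.90, 2.02 and 2.26 in naive with AP20187. Hoxc4 was at 2.31, 1.53, 2.47, 2.71 and 2.74 FPKM in DMM with vehicle, 2.19, 2.03, 2.04, 1.85 and 1.14 in DMM with AP20187, 2.17, 2.07, 2.38, 3.44 and 2.04 in naive with vehicle and 1.71, 2.60, 2.22 and 1.32 in naive with AP20187. Hoxb3 was at 1.86, 1.52, 2.07, 1.84 and 1.47 FPKM in DMM with vehicle, 1.55, 1.49, 1.75, 1.40 and 1.57 in DMM with AP20187, 1.62, 1.37, 1.67, 2.70 and 1.48 in naive with vehicle and 1.35, 1.77, 1.79 and 1.11 in naive with AP20187. Hoxb3 had the smallest difference between group means of the expressed members. It shares 52.9% of its exon bases with Hoxb3os on the opposite strand in the GENCODE annotation. Hoxb4, best known from the self-renewal of blood stem cells, was at 0.571, 0.929, 1.36, 1.36 and 1.26 FPKM in DMM with vehicle, 2.89, 1.37, 1.70, 1.64 and 1.60 in DMM with AP20187, 0.609, 0.912, 1.5, 1.54 and 0.779 in naive with vehicle and 1.38, 1.86, 1.47 and 0.580 in naive with AP20187. On this scale every DMM AP20187 library lay above every DMM vehicle library, but in CPM they overlapped, and the test on counts gave 0.78 (edgeR adjusted p 0.0993).

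The other 15 members were lower or absent in at least 1 group. Hoxa2, Hoxa3, Hoxa4, Hoxd3 and Hoxd4 averaged 0.512 to 0.922 FPKM over the 19 libraries, and Hoxa6, Hoxb2 and Hoxc5 averaged 0.953 to 1.36. These rostral genes of the Hoxa cluster therefore stood well under Hoxa5, Hoxa7, Hoxa9 and Hoxa10 of the same cluster. Hoxd10 averaged 0.443 and Hoxa11 0.329 FPKM. Hoxc11, Hoxd11, Hoxa13 and Hoxd13 averaged 0.00834 to 0.0228 FPKM and did not pass the main filter on low counts.

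As a share of the summed FPKM of all Hox genes, group 9 was highest at 18.9% ± 2.19 (SD over 19 libraries). Group 7 took 15.2% ± 1.27, group 10 14.7% ± 2.34, group 8 12.7% ± 0.934 and group 6 11.8% ± 2.89. The rostral groups took 7.15% ± 3.28 (group 1), 2.34% ± 0.813 (group 2), 3.34% ± 0.716 (group 3), 6.05% ± 1.23 (group 4) and 7.27% ± 1.01 (group 5). Group 11 took 0.451% ± 0.414 and group 13 0.0310% ± 0.0743, and no gene of group 12 had a count. In single libraries groups 9 and 10 together took 26.8% to 37.0%, groups 4 to 8 48.1% to 58.5%, groups 1 to 3 9.46% to 18.4% and groups 11 to 13 0.0354% to 1.63%. These shares were a description with no test. In percentage points group 1 moved most between the study's groups: 8.09% ± 2.64 in DMM with vehicle and 3.83% ± 1.69 in DMM with AP20187, and 9.70% ± 3.10 and 6.96% ± 2.80 in naive mice. In proportion group 11 moved more, from 0.161% ± 0.200 in naive with vehicle to 0.787% ± 0.136 in DMM with AP20187, and group 13 had counts in naive with AP20187 alone.

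**Figure D2:**
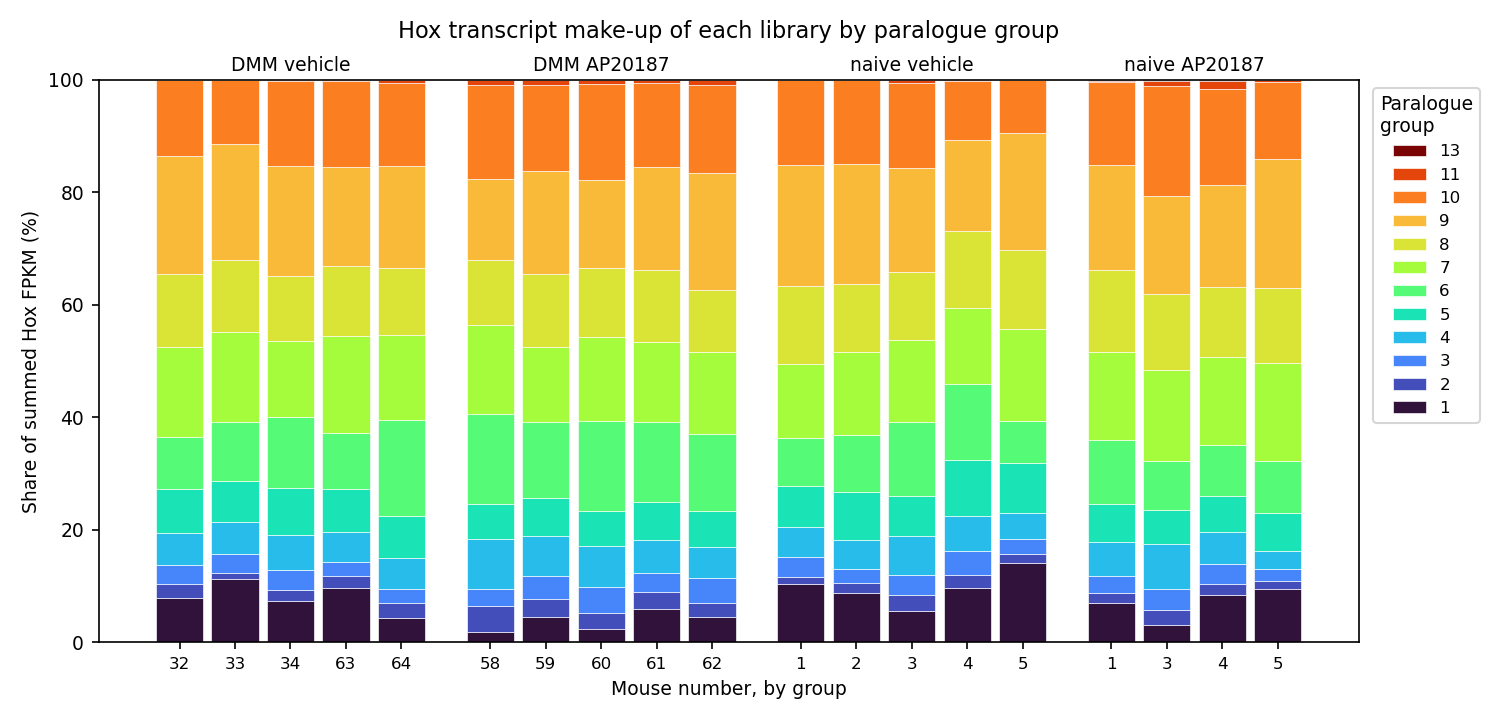
Share of the summed Hox FPKM taken by each paralogue group (vertical axis, %) in each library, 1 bar per mouse, by study group. Group 9 takes 14.4% to 22.9% in all 19 libraries, and the lowest segment, group 1, is thinner in DMM with AP20187 (1.81% to 5.98%) than in most others.

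Over the 4 groups the means of most expressed Hox genes lay within 2-fold of each other, which is described here without a test. The ratio of the highest to the lowest group mean CPM was 1.13 to 3.28 among the 19 expressed members, with a median of 1.49. In 16 of the 19 (84.2%) the 4 group means lay within 2-fold of each other, against 70.6% of the 12709 tested genes that met the same level, whose median ratio was 1.56. Hoxb3 (1.13), Hoxc8 (1.25), Hoxc6 (1.28) and Hoxa10 (1.29) had the lowest ratios. Hoxd1 (3.28), Hoxb5 (2.42) and Hoxb8 (2.33) were the 3 above 2-fold. In Hoxd1, Hoxb5 and Hoxb8 the lowest group was DMM with AP20187. Within groups the SD of log2 CPM had a median of 0.352 for the Hox genes and 0.354 for all of these genes. With a limit of 1.5-fold in place of 2-fold the count was 10 of 19.

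The comparisons between groups were made on counts with edgeR's quasi-likelihood F test, in which 30 of the 34 members passed the filter on low counts. An adjusted p is the Benjamini-Hochberg value over all 22778 genes tested, and a gene was called at an adjusted p under 0.05. For any difference among the 4 groups, 8 of 30 Hox genes were called, or 26.7%, against a background of 26.9% of all genes. The 8 genes were Hoxa4, Hoxa7, Hoxb5, Hoxb8, Hoxc10, Hoxd1, Hoxd9 and Hoxd10, and their share is near that background. The call count fell to 5 without DMM AP20187 58 and to 4 without DMM AP20187 59.

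DMM against naive with vehicle asks whether the segmental code differed between operated and naive mice. None of the 4 groups had sham surgery, so the operation and the joint disease cannot be told apart. No Hox gene was called of 30, and the background was 0% of 22778 genes in edgeR. At an unadjusted p under 0.05 there were 0 of 30 Hox genes, against 1.66% of all genes, and DESeq2 and limma also called 0 Hox genes. The 95% interval of the log2 fold change lay within 2-fold in either direction for 22 of 30 members, against 49.4% of all genes. No member's ranges were free of overlap, beside 0.237% of all genes. Hoxa7 was at 27.0 ± 4.96 CPM (SD, n = 5) in DMM and 26.5 ± 6.24 in naive, with a log2 fold change of 0.03 and an interval of -0.33 to 0.39. Hoxa10 was at 28.2 ± 6.19 and 24.8 ± 4.82 CPM, with 0.19 (-0.14 to 0.51). Hoxd1 was at 13.4 ± 4.69 and 16.2 ± 6.27 CPM, with -0.27 (-1.13 to 0.58), so a difference of 2-fold lower lay inside its interval. The median over the 30 members was -0.01, beside 0.03 over all genes.

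AP20187 against vehicle in DMM mice gave the most calls, and in edgeR they were decreases. Of 30 Hox genes 6 were called, against a background of 23.8% of all genes, and the 6 were lower with AP20187, against 12.4% of all genes called lower and 11.3% higher. The 6 were Hoxd1, Hoxa4, Hoxb5, Hoxa7, Hoxb8 and Hoxd9, a share of 30 members no larger than the background. At an unadjusted p under 0.05 there were 12 of 30, against 37.3% of all genes. The median log2 fold change of the 30 was -0.16, beside -0.10 over all genes, and 17 of 30 were below 0, beside 55.3% of all genes. In 14 of 30 the 95% interval lay within 2-fold, against 33.8% of all genes. As the samples are bulk tissue, fewer cells of a type and less RNA per cell cannot be told apart in any of these values.

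Hoxd1 (ENSMUSG00000042448, chromosome 2, 74593324 to 74595486, GRCm39, plus strand), the only expressed gene of group 1, had 12.9, 16.3, 11.6, 19.2 and 6.90 CPM in vehicle-treated DMM mice and 2.06, 4.83, 2.96, 9.0 and 5.86 with AP20187. DMM vehicle 64 lay among the AP20187 mice and the other 4 vehicle mice above them. The means were 13.4 ± 4.69 and 4.94 ± 2.72 CPM (SD, n = 5 each). edgeR gave Hoxd1 a log2 fold change of -1.44 (SE 0.42), or 2.71-fold lower, with an adjusted p of 0.0200. The call was lost without DMM AP20187 58 (adjusted p 0.0529 in edgeR) or 60 (0.0515).

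Hoxa4 (ENSMUSG00000000942, chromosome 6, 52166651 to 52168733, minus strand), which acts in the hindbrain and neck, was at 1.87, 1.63, 0.787, 1.57 and 1.71 CPM with vehicle and 0.591, 0.351, 0.458, 0.569 and 0.102 with AP20187. The groups did not overlap, although the gene was low, with 6 to 121 counts a library. Its log2 fold change of -1.86 (SE 0.44, edgeR adjusted p 0.00722) was the largest decrease among the 30 members. Hoxa4 shares 16.0% of its exon bases with Gm29430 on the opposite strand in the GENCODE annotation.

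Hoxb5 (ENSMUSG00000038700, chromosome 11, 96194162 to 96196947, plus strand), known from neural crest and the enteric nervous system, was at 11.2, 9.89, 11, 11.1 and 6.73 CPM with vehicle and 3.17, 5.28, 4.37, 7.10 and 5.10 with AP20187. Vehicle mouse 64 lay below AP20187 mouse 61 and the other vehicle mice lay above every AP20187 mouse. The log2 fold change of Hoxb5 was -1.0 (SE 0.25, edgeR adjusted p 0.00886), or 2.00-fold lower. In naive mice the value was -0.62, which edgeR did not call (adjusted p 0.125) and limma called with either pseudocount (0.0328 and 0.0282).

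Hoxa7 (ENSMUSG00000038236, chromosome 6, 52191471 to 52198834, minus strand), the most abundant member, was at 25.4, 27.1, 23.2, 35.5 and 23.9 CPM with vehicle and 14.2, 16.0, 17.6, 21.0 and 17.8 with AP20187. Every AP20187 mouse lay below every vehicle mouse. With a log2 fold change of -0.64 (SE 0.17, edgeR adjusted p 0.0145) Hoxa7 was 1.56-fold lower, the smallest of the 6 decreases. Hoxa7 shares 20.4% of its exon bases with Hoxaas3 on the opposite strand.

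Hoxb8 (ENSMUSG00000056648, chromosome 11, 96172731 to 96176141, plus strand), known from the dorsal spinal cord, from grooming behaviour and from microglial and myeloid lineages, was at 5.55, 3.78, 4.52, 10.9 and 8.61 CPM with vehicle and 4.37, 4.74, 3.37, 3.24 and 2.39 with AP20187. Mice 63 and 64 were high, and vehicle mice 32 to 34 overlapped the AP20187 mice. The log2 fold change was -0.88 (SE 0.26, edgeR adjusted p 0.0212). With mice 32 to 34 as the only vehicle mice Hoxb8 had -0.35 and an adjusted p of 0.230, and it was not called without DMM vehicle 63 (0.0646) or DMM AP20187 62 (0.0536).

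Hoxd9 (ENSMUSG00000043342, chromosome 2, 74528071 to 74530552, plus strand), a gene of the lumbar level and hindlimb, was at 8.70, 7.52, 6.14, 6.71 and 5.68 CPM with vehicle and 3.03, 3.22, 3.54, 4.40 and 4.87 with AP20187. The groups did not overlap. Its log2 fold change was -0.87 (SE 0.25, edgeR adjusted p 0.0187), or 1.82-fold lower, and the call was lost without DMM AP20187 58 (0.0529) or DMM vehicle 32 (0.0530). Paralogues of group 9 gave -0.51 for Hoxa9 (adjusted p 0.105), -0.17 for Hoxb9 (adjusted p 0.552) and -0.39 for Hoxc9 (adjusted p 0.235), and were not called.

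**Figure D3:**
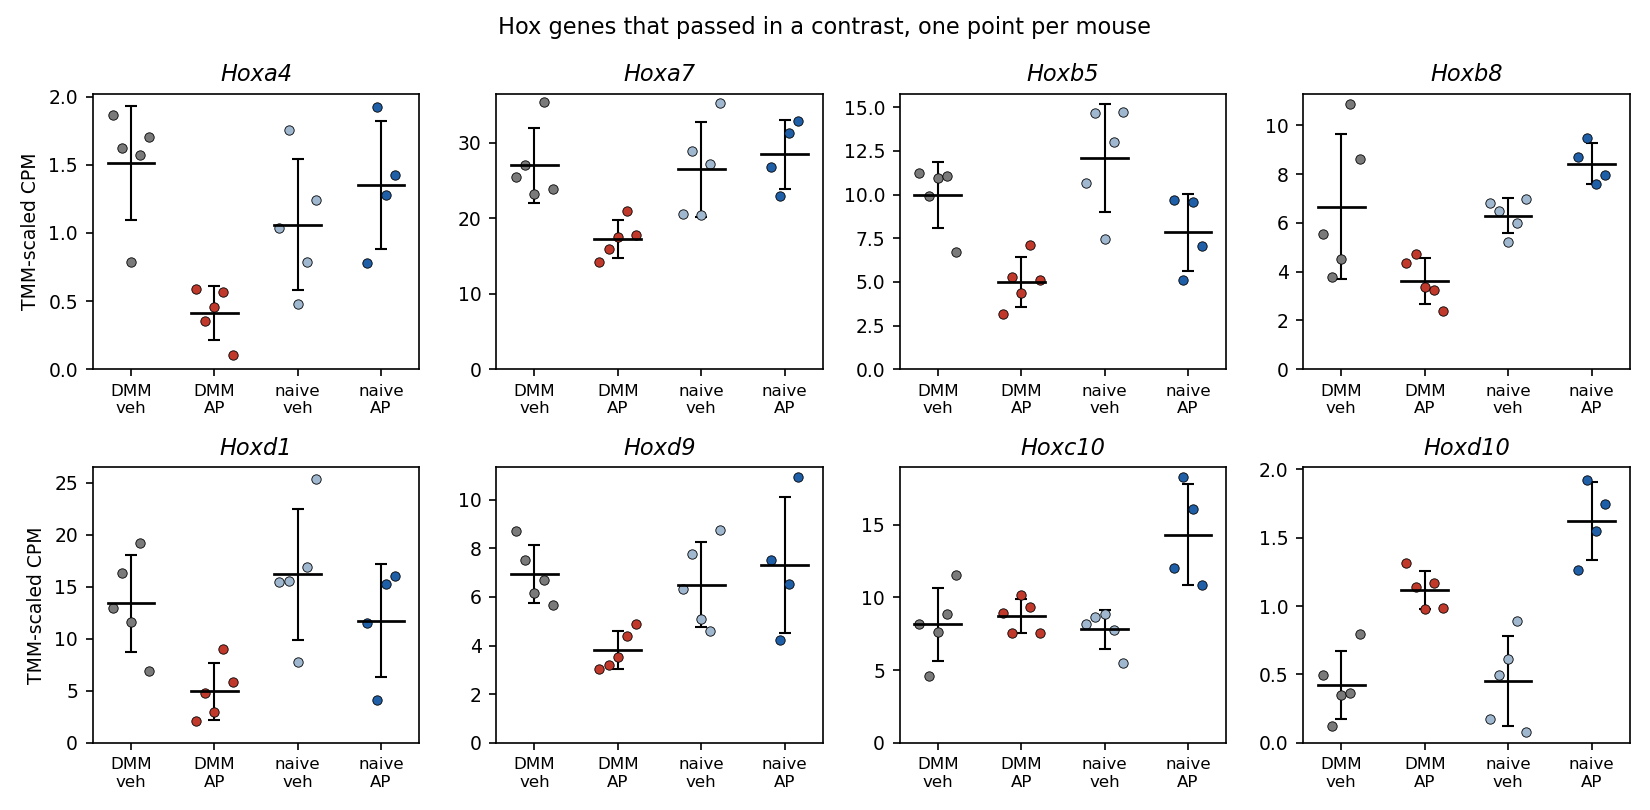
TMM-scaled CPM (vertical axis, linear, from 0) of the 8 Hox genes that passed in a contrast, 1 point per mouse in the 4 groups, with the mean and SD as bars (n = 5, 5, 5 and 4). In the first 6 panels, Hoxa4 to Hoxd9, DMM with AP20187 has the lowest mean, and in Hoxc10 and Hoxd10 naive with AP20187 has the highest.

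Ranges did not overlap for 4 of the 30 members in this comparison (12.9% of all genes): Hoxa4, Hoxa7 and Hoxd9, which were lower, and Hoxd10, which was higher. Hoxd10 had 0.493, 0.119, 0.348, 0.363 and 0.795 CPM with vehicle and 1.32, 1.14, 0.977, 1.17 and 0.985 with AP20187, and a log2 fold change of 1.40 with an edgeR adjusted p of 0.0586. It was called higher by DESeq2 (adjusted p 0.0180), by limma with either pseudocount (0.0242 and 0.0112), with only these groups in the edgeR fit (0.0468), with mice 32 to 34 as the only vehicle mice (0.0336) and without DMM vehicle 64 (0.0207), naive vehicle 4 (0.0496) or naive vehicle 5 (0.0318). Hoxa10, with the narrowest interval, had -0.37 (-0.70 to -0.05), an adjusted p of 0.0858 and no call. The intervals of Hoxb7 (-0.10, -0.50 to 0.30), Hoxc6 (0.10, -0.32 to 0.52) and Hoxb3 (-0.14, -0.57 to 0.28) included 0. When only DMM vehicle mice 63 and 64 were set against the AP20187 mice, 2 Hox genes were called, Hoxb8 and Hoxc9, and over all genes 1156 instead of 5410. The log2 fold changes of Hoxa4, Hoxa7, Hoxb5, Hoxd1 and Hoxd9 then were -1.95, -0.75, -0.80, -1.36 and -0.68 with adjusted p of 0.0621, 0.0677, 0.172, 0.156 and 0.252.

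Markers of other cells moved with AP20187 in DMM mice. The 9 sensory neuron markers summed to 3025 to 9250 CPM with vehicle and 932 to 4614 with AP20187, and 6 of the 9 were called lower. Hoxd1 and this sum were both lowest in mouse 58 of the AP20187 group and in mouse 64 of the vehicle group. The 5 granulocyte precursor markers summed to 30.3 to 404 CPM with vehicle and 1222 to 2625 with AP20187, and 5 of 5 were called higher. Fibroblast markers summed to 1247 to 6943 CPM with vehicle and 1768 to 6312 with AP20187, with 0 of 6 called. Macrophage markers, of the cells the drug targets, summed to 120 to 488 CPM with vehicle and 186 to 784 with AP20187, with a median log2 fold change of 1.14 and 1 of 6, Mrc1, called higher. In other lists 2 of 5 endothelial genes were called higher, and 2 of 5 myelinating Schwann cell, 1 of 5 satellite glia, 2 of 6 stem and progenitor, 3 of 5 early B lineage, 2 of 5 erythroid and 1 of 6 skeletal muscle genes lower. None of the mural cell, bone and cartilage, spinal cord and brain glia or motor neuron genes was called. None of the genes of the sensory neuron, granulocyte precursor, fibroblast and macrophage lists was at 0 in a whole group, and the part of any of these cells in the Hox differences was not tested.

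AP20187 against vehicle in naive mice gave 2 called Hox genes of 30, against a background of 11.2% of all genes, and both were higher, against 8.61% of all genes called higher and 2.57% lower. The 2 belong to group 10, Hoxc10 and Hoxd10. At an unadjusted p under 0.05 there were 7 of 30, against 28.8% of all genes. In 16 of 30 members the 95% interval lay within 2-fold, against 34.7% of all genes, and the median log2 fold change was 0.07, beside -0.07 over all genes.

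Hoxc10 (ENSMUSG00000022484, chromosome 15, 102875231 to 102880328, plus strand) was at 8.20, 8.68, 8.89, 7.74 and 5.47 CPM in naive with vehicle and 12, 18.3, 16.1 and 10.9 with AP20187. All 4 AP20187 mice lay above the 5 vehicle mice. The means were 7.80 ± 1.38 (SD, n = 5) and 14.3 ± 3.47 CPM (n = 4), the log2 fold change 0.88 (SE 0.23), or 1.84-fold higher, and the edgeR adjusted p 0.0208. Hoxc10 was not called without naive AP20187 3 (0.0954) or naive vehicle 5 (0.0527). In DMM mice the value was 0.09 with an interval of -0.36 to 0.55. Of its exon bases 8.70% are shared with Hoxc5 on the same strand.

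Hoxd10 (ENSMUSG00000050368, chromosome 2, 74522268 to 74525449, plus strand), which with Hoxa10 and Hoxc10 acts in lumbar motor neurons and the hindlimb, was at 0.173, 0.498, 0.613, 0.887 and 0.0802 CPM with vehicle and 1.26, 1.93, 1.55 and 1.75 with AP20187. The groups did not overlap, with 6 to 55 counts against 73 to 114. Its log2 fold change was 1.85 (SE 0.55, edgeR adjusted p 0.0365), or 3.59-fold higher. The call was lost in 8 of 27 alternatives, among them leaving out naive AP20187 1 (0.0648), 3 (0.0994) or 4 (0.0521) or naive vehicle 1 (0.0878), 2 (0.0712) or 5 (0.0600). Hoxa10, the third gene of the group and the most abundant, gave -0.08 with an interval of -0.43 to 0.26. Hoxb7 and Hoxb8 also did not overlap between these groups, both higher with AP20187, at log2 fold changes of 0.43 (adjusted p 0.167) and 0.42 (0.304). These made 4 of 30 members without overlap, beside 15.5% of all genes.

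**Figure D4:**
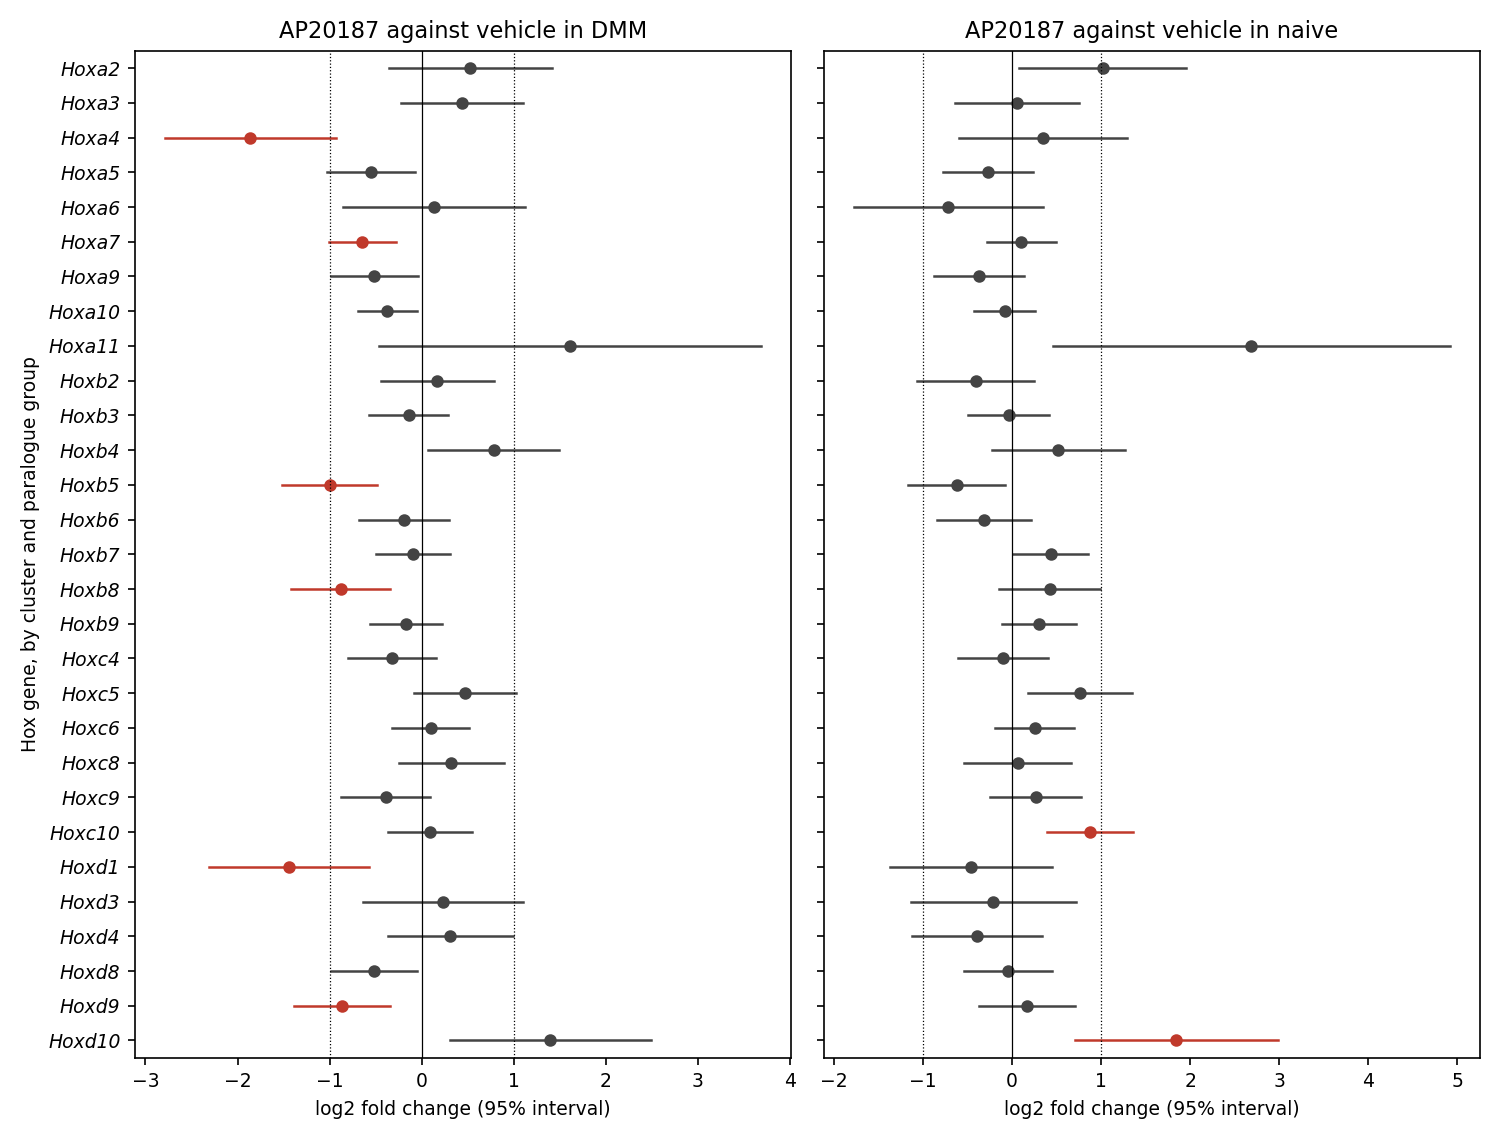
Log2 fold change of AP20187 against vehicle (horizontal axis) with its 95% interval for the tested Hox genes reported here, in DMM mice at left and naive mice at right; red marks an adjusted p under 0.05 and dotted lines mark 2-fold. The 6 red genes at left lie below 0, and the 2 at right, Hoxc10 and Hoxd10, lie above it.

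The genes of groups 11 and 13 were seen as traces. Hoxa13 and Hoxd13, known for digits, tail and genitalia, had 0 counts in all 15 libraries outside naive with AP20187, which allows up to 3 counts in each. In naive with AP20187 Hoxa13 had 8, 12, 4 and 4 counts and Hoxd13 19, 24, 12 and 0 in mice 1, 3, 4 and 5. Neither passed the main filter on low counts. Without the filter edgeR called both for any difference among the 4 groups (adjusted p 0.0211 for Hoxa13 and 0.0376 for Hoxd13), and without naive AP20187 5, the mouse at 0, Hoxd13 passed the filter and was called in naive mice (0.0328). These calls set the 1 group with counts against groups at 0. Hoxc11, with at most 16 counts (naive vehicle 4), and Hoxd11, with at most 12 (naive vehicle 1), had counts with vehicle and with AP20187 alike and did not pass the main filter either. Hoxa11, of the sacral and hindlimb code, had 0, 7, 67, 0 and 6 counts in naive with vehicle and 14, 89, 192 and 44 with AP20187, and 4, 9, 33, 24 and 70 and 89, 102, 74, 67 and 85 in DMM with vehicle and AP20187. Its groups overlapped, and the log2 fold changes of 2.69 in naive (SE 1.06) and 1.61 in DMM (SE 0.99) were not called, with edgeR adjusted p of 0.106 and 0.253. In naive mice Hoxa11 was called by DESeq2 (adjusted p 0.0415), by limma on log2(FPKM + 0.1) (0.0412) and by edgeR without naive vehicle 3, where its value was 4.83 (0.0103). For any difference limma called it with either pseudocount (0.0173 and 0.0292). In the annotation 35.0% of its exon bases are shared with Hoxa11os on the opposite strand.

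**Figure D5:**
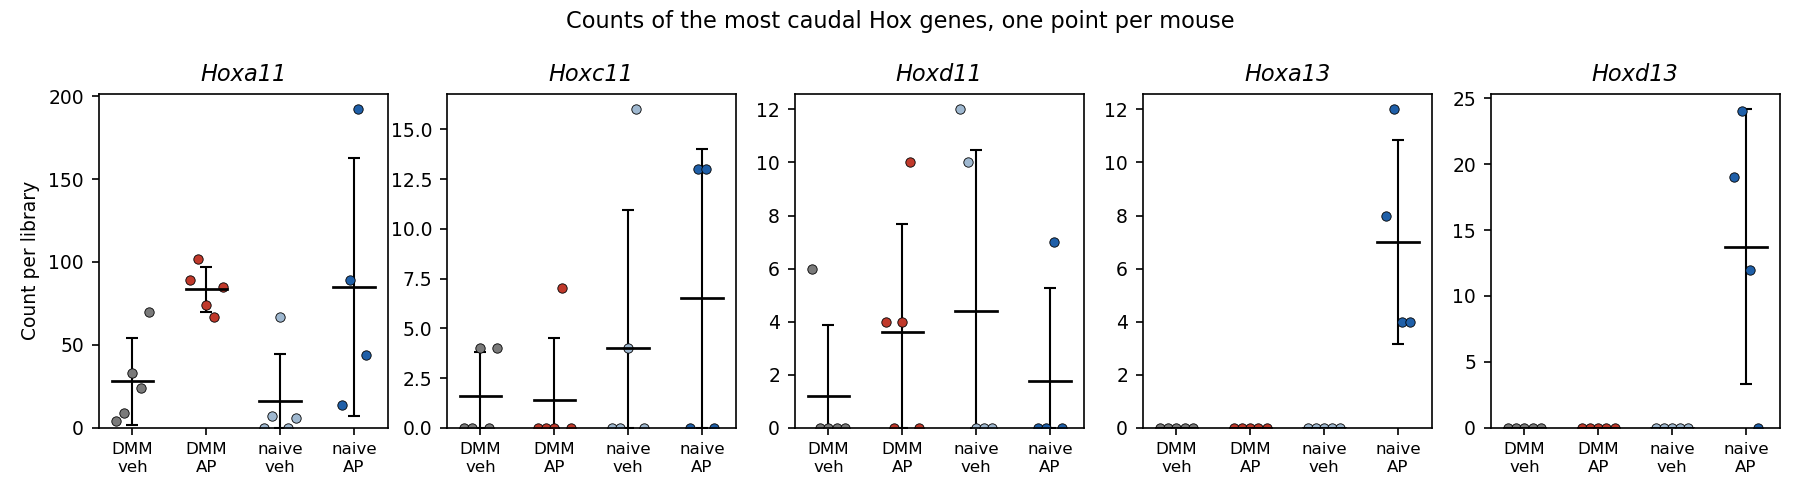
Counts per library (vertical axis) of the genes of groups 11 and 13, 1 point per mouse in the 4 groups, with mean and SD as bars. Hoxa13 and Hoxd13 have counts in naive with AP20187 alone, at most 24, and Hoxa11 reaches 192 there.

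Skeletal muscle markers moved with the naive comparison: the 6 genes summed to 11.5 to 408 CPM with vehicle and 1501 to 2311 with AP20187, and 2 of 6 were called higher. In DMM the same sum was 16.0 to 142 with AP20187, and 13.8 to 1766 with vehicle, where mouse 32 was the highest. DMM vehicle 32 had 0 counts of Hoxa13 and Hoxd13. Granulocyte precursor markers summed to 45.6 to 115 CPM with vehicle and 319 to 1690 with AP20187 in naive mice, with 5 of 5 higher. Sensory neuron markers summed to 5517 to 10496 and 1397 to 7683 CPM, with 0 of 9 called, and naive AP20187 3 was the lowest for this sum and for Hoxd1. Of 7 markers of spinal cord and brain glia 3 were called lower with AP20187 in naive mice, Slc1a2, Mog and Olig1, and the list summed to 62.8 to 69.0 CPM with vehicle and 34.6 to 82.1 with AP20187. Motor neuron markers were near 0, at 2.13 to 7.58 CPM in sum with vehicle and 0.0676 to 2.05 with AP20187, where Mnx1 and Slc18a3 were at 0. Of these, 1 of 3 tested motor neuron genes, Slc18a3, was called lower. Macrophage markers summed to 67.2 to 366 CPM with vehicle and 359 to 597 with AP20187, with 2 of 6 called higher, and 1 of 5 endothelial genes was called higher, 1 of 5 satellite glia and 3 of 5 early B lineage genes lower. The part of these cells in the Hox values was not tested.

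DMM against naive with AP20187 shares its libraries with the comparisons above. Hoxb8 alone was called of 30, against a background of 0.702% of all genes, and it was lower in DMM, beside 0.439% of all genes called lower. Its means were 3.62 ± 0.937 CPM in DMM and 8.43 ± 0.827 in naive, and every DMM mouse lay below every naive mouse. The log2 fold change of -1.22 (SE 0.27) had an edgeR adjusted p of 0.0468, and the call was lost in 17 of 26 alternatives, with adjusted p of up to 0.103. Ranges did not overlap for 5 of 30 members (5.9% of all genes), and 11 of 30 had an unadjusted p under 0.05 (16.7% of all genes). The 95% interval lay within 2-fold for 11 of 30, against 40.7% of all genes. Hoxa7 had -0.72 (adjusted p 0.0696), Hoxa4 -1.70 (0.0819) and Hoxd9 -0.94 (0.0873), which edgeR did not call and DESeq2 did, at 0.0126, 0.0113 and 0.0224.

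The interaction asks whether the AP20187 effect differed between DMM and naive mice, and no Hox gene was called of 30, against 0.114% of all genes (0.0483% higher and 0.0659% lower). edgeR's unadjusted p was under 0.05 for 5 of 30, against 7.67% of all genes, and DESeq2 and limma called 0. The smallest adjusted p belonged to Hoxa4, at 0.246 for a difference of -2.21 (SE 0.63). Hoxb8 followed with -1.30 (SE 0.37, adjusted p 0.259). Only 7 of 30 members, against 31.1% of all genes, had an interval of the difference within 2-fold. Thus the calls of Hoxd1, Hoxa4, Hoxb5, Hoxa7, Hoxb8 and Hoxd9 in DMM and of Hoxc10 and Hoxd10 in naive mice were not shown to be particular to either.

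Other genes of the Hox pathway were counted over whole lists, to be read against the backgrounds given above. All 9 TALE cofactors were tested, and by level they were led by Pbx2 at 11.3 to 14.9 FPKM in the group means. In DMM mice with AP20187, 1 of the 9 was called higher and 3 lower. The 3 lower were Pbx4 (log2 fold change -1.04, edgeR adjusted p 0.0120), Pknox2 (-0.76, 0.0398) and Meis3 (-0.72, 0.0256). The list median was -0.30, beside -0.10 over all genes. In naive mice 1 of the 9 was called higher with AP20187 and 0 lower. None was called in either direction between DMM and naive mice or in the interaction.

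Of 11 regulators of axial level and retinoic acid signalling, the genes upstream of Hox domains in the embryo, Cdx2 and Cdx4 were not listed in the FPKM table and 8 were tested. Cdx1 was at 0 in both AP20187 groups and at most 0.0351 FPKM elsewhere, and Rarg, a retinoic acid receptor, was highest at 6.31 to 9.48 FPKM. Gdf11, a growth factor of the trunk-to-tail transition, was called lower with AP20187 in DMM mice (-1.02, adjusted p 0.0159), as was Rarg (-0.55, 0.0130), while the median of the 8 was 0.25. In naive mice 0 of 8 were called.

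Polycomb genes, the repressors of Hox clusters, moved in both directions. Of 27, 7 were called higher and 3 lower with AP20187 in DMM mice, with a list median of 0.14. Phf19 (2.21, adjusted p 0.00247), Ezh2 (1.37, 0.0267) and Pcgf5 (0.96, 0.00292) were the largest increases and Cbx6 (-1.12, 0.00726) the largest decrease. In naive mice Phf19 was higher (2.21, 0.00547) and Cbx7 lower (-0.46, 0.0305). Ezh2, the methyltransferase of the complex, was at 5.35 ± 1.71 FPKM in DMM with AP20187 and 2.15 ± 1.39 with vehicle. The highest of the list by level was Rbbp7, at 42.7 to 49.1 FPKM.

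Of 13 MLL and KDM6 genes, which keep Hox genes active, 5 were called higher and 1 lower in DMM mice, with a list median of 0.26. Kdm6b, a demethylase of the Polycomb mark, was called higher (1.36, edgeR adjusted p 0.00111), as was Wdr5 (1.24, 4.55e-04), while Mllt3 was at -0.68 (0.0242). Dot1l (0.60, 0.0189) and Kmt2b (0.53, 0.0372) were among the 5. In naive mice Kdm6b (0.93, 0.0230) and Wdr5 (0.91, 0.00855) were the 2 called. Dpy30 had the highest level, at 25.1 to 43.0 FPKM. The granulocyte precursor sums given above moved with these groups as well, and their part in these list values was not tested.

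The rostral patterning genes were near 0, and 5 of 10 could be tested. En2, of the midbrain and hindbrain boundary, was listed at 0 in the 4 naive AP20187 libraries and at 0.233 ± 0.0979 CPM in naive with vehicle, and edgeR called it (adjusted p 0.00582). En2 was also called in DMM against naive with AP20187 (0.0461), with 0.168 ± 0.0666 CPM in DMM, and for any difference (0.0110). Evx1 and Evx2, which adjoin the Hoxa and Hoxd clusters at the caudal end, were at most 0.0214 FPKM in any library.

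Between the outermost Hox genes of the clusters the files listed 31 other entries, mostly antisense and other noncoding RNAs and microRNAs, and 6 reached a mean of 1 FPKM in a group. Of the 16 tested, 1 was called with AP20187 in DMM mice and 1 in naive mice, both lower. Haglr, a noncoding RNA beside Hoxd1 on the opposite strand (ENSMUSG00000075277, chromosome 2, 74580206 to 74593240), had 6.61, 5.22, 6.28, 5.67 and 4.18 CPM in vehicle-treated DMM mice and 1.86, 3.33, 4.32, 2.65 and 1.14 with AP20187. Only the vehicle mouse 64 and the AP20187 mouse 60 overlapped. Its log2 fold change was -1.07 (edgeR adjusted p 0.0235), the same direction as Hoxd1. Hoxaas2, antisense in the Hoxa cluster, gave -1.24 in naive mice (0.0258). The other 5 at 1 FPKM or more were Hotairm1, Gm14424, Gm28230 and the unnamed noncoding entries ENSMUSG00002075344 and ENSMUSG00002075580, none of them called. Gm28230 runs through Hoxd3 and Hoxd4 and shares 53.1% and 39.1% of their exon bases, and it was at 0 in 2 of the 4 naive AP20187 libraries, so reads of these 3 genes may be divided in more than 1 way.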

How the data were processed

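Poly(A) RNA libraries were made with a stranded kit, per the labels' protocols, from 1 pool of ganglia per mouse. A table that the authors deposited gives whole-number counts for 56691 entries, and a second deposited table of 36682 genes has counts beside FPKM. The Hox counts were the same in both, and other genes were not compared. GRCm39, cutadapt, HISAT2 and StringTie are named in the submitters' processing notes; the annotation release and the use of strand in counting are not given in the sources used here. FPKM served for levels between genes and counts for comparisons. edgeR 4.0.16 (R 4.3.3) was fitted to all 19 libraries with 4 group means, TMM and filterByExpr (minimum count 10), leaving 22778 genes and 15 residual degrees of freedom; tests were two-sided. Alternatives used DESeq2 1.42.0 and limma 3.58.1 on log2(FPKM + 0.1) and log2(FPKM + 1). On simulated data, for AP20187 against vehicle in DMM over 22778 genes, 31% of 100 genes changed 2-fold and 84% of 100 changed 4-fold were recovered, with 2 false calls. Floors cover counting error only. The members and lists were chosen with earlier results of these data known. By rule the Hox genes at 1 FPKM or more in each group or called in a contrast are named with their values; in other lists up to 5 called members with the largest change and the highest by level are named. Exon overlaps were read by gene name from GENCODE M21 (GRCm38). The transgene was not analysed here, and a few genes are not reported here.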

Additional observations from a re-analysis of the deposited data

Results flagged for a closer look

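In 11 of 120 pairs of a tested member and a group, the highest or lowest mouse stood apart from the others of its group by Dixon's criterion; chance alone gives about 1 in 20 such pairs. Naive vehicle 4 was the high mouse for 4 members of groups 3 to 8: Hoxb3 at 11.8 CPM, Hoxc4 at 9.04, Hoxc5 at 3.47 and Hoxc8 at 12.4. In DMM with vehicle, mouse 64 was low for Hoxa9 (24.4 CPM) and high for Hoxc6 (18.0), mouse 33 was low for Hoxa2 (0.478) and mouse 34 was low for Hoxa4 (0.787). DMM AP20187 58 was high for Hoxb2 (8.59 CPM) and DMM AP20187 62 low for Hoxc4 (3.38). Naive vehicle 3 was high for Hoxa11, at 0.893 CPM.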

How the results depend on the processing

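The 6 Hox genes called with AP20187 in DMM mice, in either direction, became 2 with DMM vehicle mice 63 and 64 only, and 4 to 9 when each library was left out in turn; the 9, without DMM vehicle 64, included Hoxd10, which was higher. In naive mice the 2 calls became 1 without the filter on low counts, 4 with DESeq2, 1 with only the 2 groups in the fit, and 0 to 3 leaving out a library. The single call of DMM against naive with AP20187 became 0 with library totals only, 0 without the filter, 4 with DESeq2, 0 with only its own groups, and 0 to 1 leaving out a library. The interaction had 1 call, Hoxb8, with DMM vehicle mice 63 and 64 only. Calls for any difference ran from 4 to 11 leaving out a library. Over all genes, the 2548 calls in naive mice were 4356 with DESeq2, 4233 and 4149 with limma and 1209 with the replicate block; the 160 of DMM against naive with AP20187 were 73 without the filter, 234 on library totals, 1109 with DESeq2, 1012 and 1243 with limma; and the 26 of the interaction were 13 without the filter, 224 with DESeq2 and 90 with mice 63 and 64 only. DMM vehicle mice 32 to 34 only gave 8450 for the first comparison in place of 5410, and mice 63 and 64 only gave 541 for DMM against naive with vehicle in place of 0. At 2 FPKM in place of 1, 12 members were expressed, and at 0.5 FPKM 23, and with a 1.5-fold limit 10 members were constant. Under alternatives alone, Hoxa9 and Hoxd8 were also called in DMM mice (3 alternatives each) and Hoxc5 in naive mice (2). Single libraries also moved the counts over all genes: 3212 without DMM AP20187 58 and 7677 without DMM vehicle 64 in DMM mice, and 994 without naive AP20187 3 in naive mice. The cause of these changes was not tested. No Hox fold change called in the main fit reversed its direction under any alternative run. Directions of uncalled genes were not compared.

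Mouse numbers are shared between the naive groups alone. Deviations of same-numbered mice correlated at 0.0235, 0.301, -0.0822 and 0.183, and those of differently numbered mice at -0.262 to 0.199. These values do not settle whether the numbers pair mice, and the main fit took the numbers as names only. With the number as a replicate block in edgeR, 2 Hox genes were called in naive mice, Hoxc10 (0.91, adjusted p 0.0406) and Hoxd10 (2.35, 0.0445).

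Depth limits the lowest members: Hoxc11, Hoxd11, Hoxa13 and Hoxd13 had at most 24 counts in a library and did not pass the main filter. Hox genes whose 95% interval reaches past 2-fold may differ by that much without a call.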
